A study of Homo sapiens with 12 samples.

Results

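The genes described here are 10 that build or break down triglyceride, the storage form of fatty acids. They were taken by symbol from the deposited tables, 10 of the 19677 genes listed, and all 10 had enough counts to be tested. GPAM, AGPAT2, LPIN1, DGAT1 and DGAT2 act in synthesis. PNPLA2, its activator ABHD5, LIPE, MGLL and PNPLA3 act in or near lipolysis. RNA was sequenced from CAOV3, an established human line of high grade serous ovarian carcinoma, labelled WT. Control cells received DMSO, the solvent. The second group received ovarian cancer ascites at 10% of the medium together with DMSO, the third 200 uM bezafibrate, and the fourth the drug and the ascites at those same doses, called the combination below. Each group had 3 libraries (n = 3 throughout), and the 3 treated groups carry a time of 16 hours in their labels while the control label carries none. Bezafibrate lowers blood lipids and activates the nuclear receptors called PPARs. Ascites is fluid that collects around the abdominal organs of patients. DMSO is named for control and ascites libraries but not for those with the drug, so an effect of the drug and of its solvent cannot be told apart. The labels do not say whether replicates were separate cultures or whether the fluid came from more than 1 patient, so p-values measure the spread between these libraries, which may be technical.

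Triglyceride is made on the membrane of the endoplasmic reticulum by adding acyl chains to glycerol 3-phosphate one after another, and is stored in lipid droplets. GPAM adds the initial chain, AGPAT2 the next to give phosphatidic acid, LPIN1 removes the phosphate to give diacylglycerol, and DGAT1 or DGAT2 adds the last chain. Lipolysis runs in reverse: PNPLA2 (adipose triglyceride lipase) cuts triglyceride, LIPE (hormone-sensitive lipase) cuts diacylglycerol, and MGLL (monoacylglycerol lipase) cuts the last chain off. ABHD5 has no lipase activity of its own on triglyceride and activates PNPLA2, whereas PNPLA3 is a relative of PNPLA2 on the droplet that can bind ABHD5. Genes of both arms are known PPAR targets in fat or liver, and LPIN1, GPAM and PNPLA3 are also known targets of the sterol-regulated factor SREBP-1.

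Total counts ranged from 11831093 to 18762759 per library, and levels are given as CPM, counts per 1000000 after scaling of the library totals. The 10 genes had between 56 counts (lowest library, PNPLA3) and 3616 (highest, MGLL), so counting error is largest for PNPLA3 and ABHD5. Combination replicate 3 stood apart from the other libraries, at -22.4 on the second principal component while the others lay between -4.37 and 9.84. Without it, 24 in place of 11 genes of the whole table were called for ascites against control, 28 in place of 16 for the combination against bezafibrate, and 118 in place of 35 for ascites averaged over the drug. Of 9 epithelial and ovarian carcinoma markers, KRT8 (3005 CPM in control cells) and KRT18 were abundant, but MUC16 and WFDC2 were at or near 0 and PAX8 did not exceed 1.27 CPM in any library. Several of this list were called higher with the drug, CDH1 from 18.6 to 53.3 CPM, KRT7 from 762.1 to 1117.6 and KRT19 from 600.0 to 713.1 without ascites. PAX8 was also called higher without ascites, from 0.378 to 1.11 CPM (edgeR adjusted p 0.0252), but not with ascites (edgeR adjusted p 0.44). Among 8 adipocyte markers, ADIPOQ and CIDEA had 0 counts in all libraries and LEP had 1 count in all. The sum of the adipocyte list was 10.3 to 12.6 CPM in libraries without the drug and 25.9 to 30.8 CPM in those with it, a difference carried by CIDEC and PCK1. The summed fibroblast markers were lower with the drug, at 26.4 to 31.0 against 49.4 to 58.5 CPM. Their part in the results was not tested.

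Scaled to transcript length, the steps of the pathway differed widely in level in control cells. Length was taken from the GENCODE 29 annotation of GRCh38, either as all exon bases of a gene or as its longest coding transcript. By exon bases, AGPAT2 was highest at 52.5 ± 4.19 CPM per kb (SD, n = 3), followed by MGLL at 13.3 ± 0.168 and PNPLA2 at 9.99 ± 0.605. These 3 kept this order with the longest transcript. LIPE followed DGAT1, LPIN1 and GPAM by either length, at 3.36 ± 0.0692 CPM per kb of exon. PNPLA3 (1.69 ± 0.300) and ABHD5 (1.3 ± 0.108) were lowest, and the libraries of these neighbours overlapped, as they did by the longest transcript at 1.95 ± 0.346 and 1.80 ± 0.152. The order of the 2 DGAT enzymes depended on the length used: DGAT1 was at 6.16 ± 0.388 and DGAT2 at 2.32 ± 0.116 CPM per kb of exon, but at 6.85 ± 0.432 and 7.49 ± 0.373 by the longest transcript. By the latter length their libraries overlapped. So did those of GPAM and LPIN1 by exon bases, at 4.30 ± 0.132 and 4.67 ± 0.360.

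**Figure D1:**
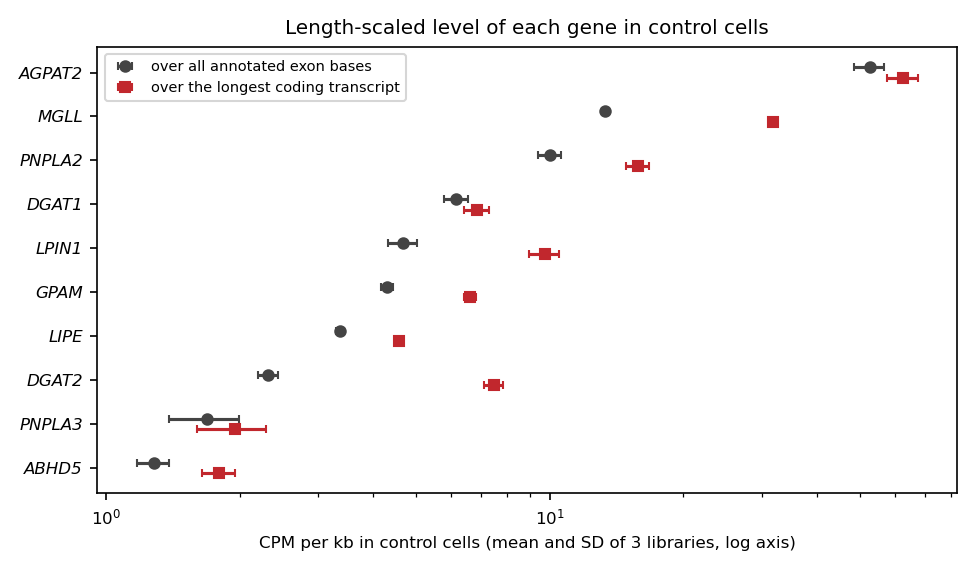
Level of each gene in control cells as CPM per kb (log axis), mean and SD of 3 libraries, by all annotated exon bases (circles) and by the longest coding transcript (squares). AGPAT2, MGLL and PNPLA2 lead by both lengths, while DGAT2 moves from 2.32 to 7.49 with the length chosen.

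Promoter sequence was read from a set of windows of RefSeq genes (GRCh38.p14), each the 250 bases before a start site. The set as used does not cover every gene. No window was used for DGAT1, DGAT2, MGLL and PNPLA3, which does not show that the full set or RefSeq lacks these genes. Windows were used for 6 of the 10 genes (GPAM, AGPAT2, LPIN1, PNPLA2, ABHD5 and LIPE), 11 windows in all. They are shown for AGPAT2, which changed most with the drug, and for PNPLA2, which was not called, at chr9:136687458-136687707 on the minus strand and chr11:818664-818913 on the plus strand. Each is written 5′ to 3′ on the strand of the gene, with capitals for matches to the motifs named next.
AGPAT2: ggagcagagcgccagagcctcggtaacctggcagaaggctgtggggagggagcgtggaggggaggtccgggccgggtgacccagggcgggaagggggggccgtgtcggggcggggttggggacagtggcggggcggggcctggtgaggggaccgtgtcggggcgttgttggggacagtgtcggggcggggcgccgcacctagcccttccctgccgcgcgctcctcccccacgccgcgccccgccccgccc
PNPLA2: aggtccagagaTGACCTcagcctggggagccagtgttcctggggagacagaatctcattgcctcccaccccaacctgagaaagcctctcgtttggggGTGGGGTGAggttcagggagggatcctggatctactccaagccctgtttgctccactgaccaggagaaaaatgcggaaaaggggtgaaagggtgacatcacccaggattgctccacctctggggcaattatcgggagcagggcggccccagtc

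Motifs were searched on both strands. The PPAR response element, AGGTCA repeated with 1 base of any kind between the copies and up to 2 mismatches, matched none of the 11 windows (0 of 11), where 2.57% of 35116 RefSeq windows of this length held it. The 3 ABHD5 windows overlap, so the 11 are not separate stretches, and with so few windows 0 matches says little. The core AGGTCA alone, which lies within the PPAR response element, was matched by the PNPLA2 window on the minus strand at -239 to -234 from the start site, and 12.1% of all windows held it. The sterol response element TCACNCCAC was also matched by PNPLA2 on the minus strand, at -153 to -145, and by 0.883% of all windows. The other 10 windows held no match. The AGPAT2 window was 77.6% G or C and that of PNPLA2 58.4%, beside a median of 58% over all windows. A match is a description of letters and no match says only that they are absent from this window.

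Bezafibrate raised AGPAT2, MGLL and LIPE whether ascites was present or not, though the LIPE call with ascites held in only 15 of 18 alternatives. GPAM was called only without ascites (held in 12 of 18 alternatives). DGAT2 and ABHD5 were called only with it (held in 13 of 18 each). The 18 include fits that leave out a library outside the contrast. For each of these calls, most losses came from leaving out a library within it. Without ascites, 4 of the 10 genes were called higher and 0 lower by edgeR's quasi-likelihood test (adjusted p under 0.05), where 10.1% of all 12470 genes tested were called higher and 7.55% lower. With upper-quartile scaling the all-gene calls were 1138 higher and 1184 lower, in place of 1257 and 942. The 4 genes were AGPAT2 and GPAM of synthesis and LIPE and MGLL of lipolysis. With ascites in both groups, 5 of 10 were called higher and 0 lower, namely AGPAT2, DGAT2, MGLL, LIPE and ABHD5, against 10.5% and 7.29% of all genes. The median log2 fold change of the 10 was 0.13 without ascites and 0.20 with it, beside a median of -0.00 over all genes tested in both contrasts. By DESeq2, AGPAT2, MGLL and LIPE were called without ascites, and AGPAT2 and MGLL with it. These contrasts share no library. The 10 genes were chosen with earlier results of these data known, so their shares beside all genes are descriptions. In bulk RNA, fewer or more cells with a transcript and less or more of it per cell cannot be told apart.

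**Figure D2:**
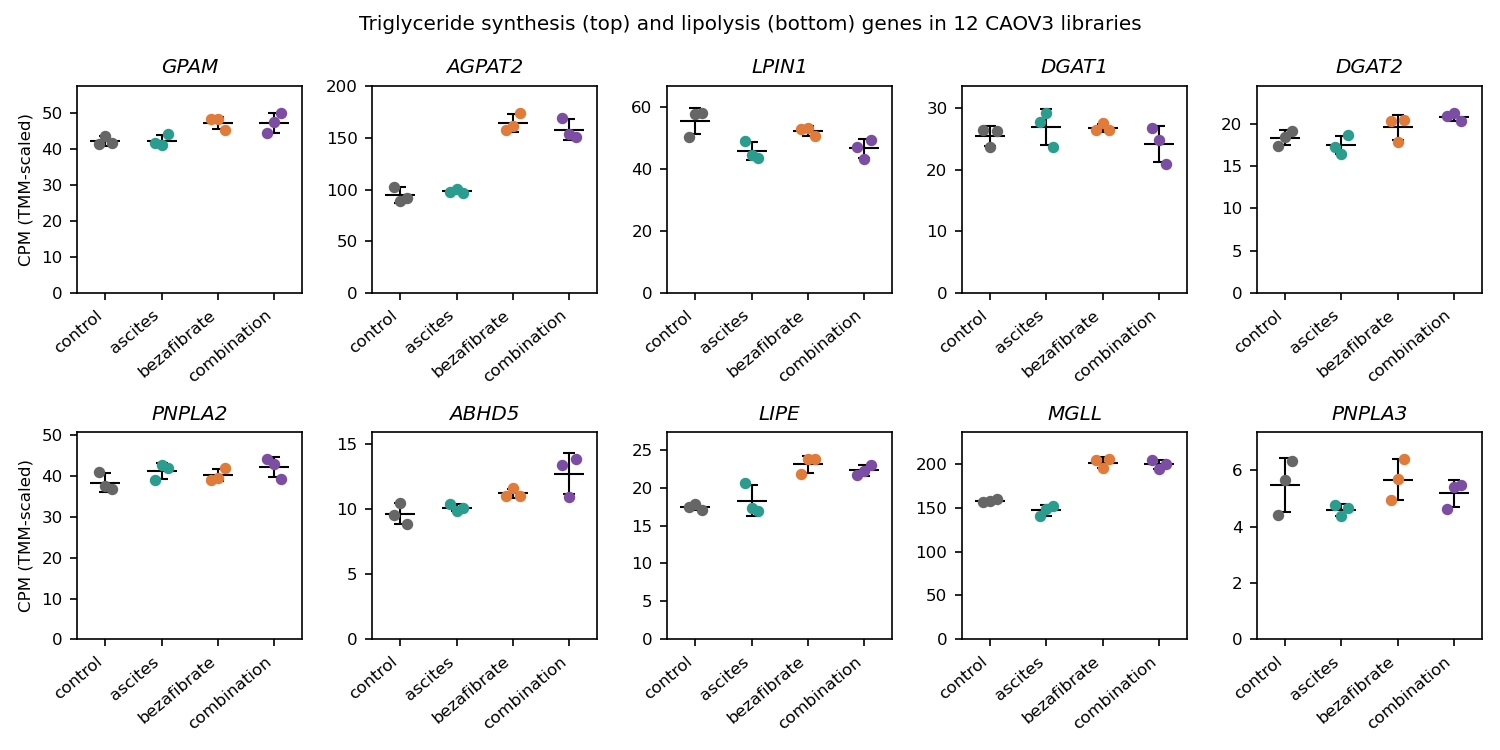
CPM of each gene in every library (points), with the mean and SD of 3 libraries (bars), synthesis genes above and lipolysis genes below; each axis starts at 0. AGPAT2, MGLL, LIPE, GPAM and ABHD5 are higher in the 6 libraries with bezafibrate than in the 6 without it. LPIN1 is lower in the 6 with ascites.

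AGPAT2 (ENSG00000169692.13, chromosome 9, 136673143 to 136687423, minus strand, GRCh38) changed most. Its acyltransferase makes phosphatidic acid, and its loss in people causes a generalised lack of body fat. The control libraries had 102.9, 88.6 and 91.8 CPM and those with bezafibrate 157.8, 161.0 and 174.0. With ascites alone the values were 97.8, 100.6 and 96.2, and in the combination 169.2, 153.8 and 151.0. All 6 libraries with the drug lay above all 6 without it. The log2 fold change was 0.80 (SE 0.0504, edgeR adjusted p 4.01e-13) without ascites and 0.69 (SE 0.0511, edgeR adjusted p 1.21e-11) with it, or 1.74-fold and 1.62-fold. It was called in each of 18 alternatives of both contrasts. GPAT3, which acts a step earlier and belongs to the wider list below, rose by less, by 0.34.

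GPAM (ENSG00000119927.14) encodes the mitochondrial glycerol 3-phosphate acyltransferase of the initial step. Control libraries had 41.3, 43.6 and 41.5 CPM, ascites libraries 41.6, 41.1 and 44.0, bezafibrate libraries 48.1, 48.2 and 45.3, and combination libraries 44.4, 47.3 and 49.9. The groups with and without the drug did not overlap, but the shift was small. It was 0.17 on the log2 scale without ascites (SE 0.0560, edgeR adjusted p 0.0335) and 0.15 with it (SE 0.0575, edgeR adjusted p 0.0594), so only the former passed; the latter passed without combination replicate 1 (edgeR adjusted p 0.0211). The call without ascites was lost in 6 of 18 alternatives, among them DESeq2 (adjusted p 0.121), upper-quartile scaling (0.0579) and the fits without control replicate 1 or 3 or without bezafibrate replicate 1 or 2 (0.110 to 0.122).

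DGAT1 and DGAT2 carry out the last step, and their changes were not tested against each other. DGAT1 had 26.5, 23.6 and 26.3 CPM in control, 26.4, 27.5 and 26.4 with bezafibrate, 27.8, 29.2 and 23.6 with ascites and 26.7, 24.8 and 21 in the combination. All 4 groups overlapped, and the drug changes of 0.07 (95% interval -0.09 to 0.24) and -0.13 (-0.30 to 0.03) were not called. The interaction for DGAT1 was -0.21 (SE 0.114, edgeR unadjusted p 0.0759, edgeR adjusted p 0.999). DGAT2 had 17.4, 18.5 and 19.2 CPM in control and 20.4, 17.9 and 20.5 with bezafibrate, which overlapped (log2 fold change 0.09, interval -0.07 to 0.25). With ascites DGAT2 was at 17.3, 16.5 and 18.7, and in the combination at 20.9, 21.3 and 20.3, with no overlap. That change of 0.25 (SE 0.0817) was called (edgeR adjusted p 0.0282), but not by DESeq2 (adjusted p 0.129) nor without ascites replicate 1 or 2 or combination replicate 1 or 2 (edgeR adjusted p 0.0645 to 0.126). Whether the drug acted differently on DGAT2 with and without ascites was tested by the interaction, at 0.16 (SE 0.114, edgeR adjusted p 0.999).

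Of the lipases, MGLL (ENSG00000074416.16, chromosome 3, 127689062 to 128052190, minus strand) had the narrowest error. Its enzyme releases the last fatty acid and also degrades the signalling lipid 2-arachidonoylglycerol. Control libraries had 156.3, 157.1 and 160.1 CPM, and bezafibrate libraries 204.4, 194.6 and 204.7. Ascites libraries had 140.5, 147.9 and 152.3, and combination libraries 204.3, 194.0 and 199.2. No library with the drug fell as low as any without it. The change was 0.35 (SE 0.0362, edgeR adjusted p 7.73e-10) without ascites and 0.44 (SE 0.0369, edgeR adjusted p 4.26e-12) with it, and it was called in each of 18 alternatives of both contrasts. The interaction for MGLL was 0.09 (SE 0.0517, unadjusted p 0.0890, edgeR adjusted p 0.999).

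LIPE (ENSG00000079435.10, chromosome 19, 42401507 to 42427426, minus strand) is best known from adipocytes, where hormones switch it on through phosphorylation. It had 17.5, 17.9 and 17.1 CPM in control and 21.8, 23.7 and 23.7 with bezafibrate. With ascites it had 20.6, 17.3 and 16.9, and in the combination 21.6, 22.2 and 23.0. Ascites replicate 1 was the closest of the libraries without the drug to those with it. LIPE rose by 0.40 without ascites (SE 0.0791, edgeR adjusted p 0.000194) and by 0.29 with it (SE 0.0812, edgeR adjusted p 0.0102). The former was called in each of 18 alternatives and the latter in 15, the exceptions being DESeq2 (adjusted p 0.0579) and the fits without ascites replicate 2 (0.0614) or 3 (0.0900). In GENCODE 29, 9.60% of its exon bases overlap the antisense gene LIPE-AS1, which is not used here. Whether counting used strand is not given in the sources used here, so its value is uncertain to that extent.

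PNPLA2 (ENSG00000177666.17, chromosome 11, 818902 to 825573, plus strand), the lipase that starts triglyceride breakdown, was not called under the drug. Control libraries had 41.0, 37.4 and 36.7 CPM, bezafibrate libraries 39.1, 39.5 and 42.0, ascites libraries 38.9, 42.7 and 41.9 and combination libraries 44.0, 43.0 and 39.3. Every pair of groups overlapped. The drug change was 0.06 without ascites (95% interval -0.06 to 0.19, edgeR adjusted p 0.567) and 0.04 with it (-0.09 to 0.16, edgeR adjusted p 0.761). These intervals leave out a change of the size seen for AGPAT2 or MGLL.

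ABHD5 (ENSG00000011198.10), the activator of PNPLA2, was called higher in the combination against ascites. It had 9.54, 10.5 and 8.88 CPM in control, 11, 11.6 and 11 with bezafibrate, 10.4, 9.84 and 10.1 with ascites and 13.4, 10.9 and 13.8 in the combination. Libraries with the drug lay above those without it. The change without ascites was 0.21 (SE 0.107, edgeR adjusted p 0.191). With ascites it was 0.33 (SE 0.107, edgeR adjusted p 0.0243), a call lost by DESeq2 (adjusted p 0.120) and without ascites replicate 2 or 3 or combination replicate 1 or 3 (edgeR adjusted p 0.0679 to 0.108). The interaction was 0.12 (SE 0.152, edgeR adjusted p 0.999). PNPLA3 had the lowest counts and the widest error: 4.43, 5.66 and 6.35 CPM in control, 4.94, 5.70 and 6.39 with bezafibrate, 4.77, 4.37 and 4.65 with ascites and 4.63, 5.43 and 5.49 in the combination. All its groups overlapped under the drug, with changes of 0.06 (95% interval -0.25 to 0.36) and 0.16 (-0.17 to 0.49). A few exon bases of ABHD5, DGAT1 and PNPLA3 are shared with ANO10 (2.25%), HSF1 (3.36%) and SAMM50 (4.58%), and reads there may have been split between the genes. Genes annotated as antisense RNAs, not used here, overlap 10.4% of the exon bases of PNPLA2 and 5.35% of those of DGAT2, by a single gene each on the opposite strand. The values of PNPLA2 and DGAT2 carry the same uncertainty as that of LIPE. For DGAT1 such a gene overlaps 10.7% of the exon bases on its own strand, where counting by strand would not separate them.

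**Figure D3:**
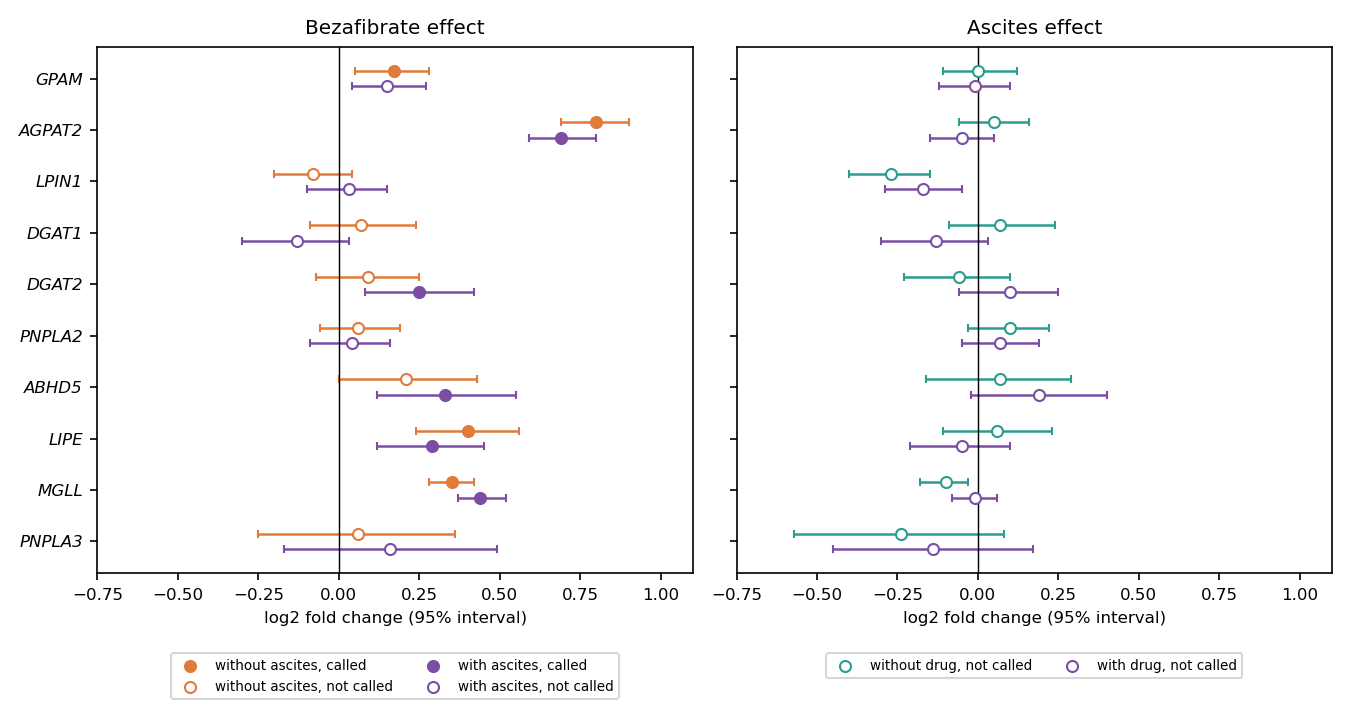
Log2 fold changes with 95% intervals (edgeR, all 12 libraries): the drug effect without and with ascites on the left, the ascites effect without and with the drug on the right; filled points were called at an adjusted p under 0.05. AGPAT2 lies farthest to the right under the drug (0.80 and 0.69), and LPIN1 farthest to the left under ascites without the drug (-0.27).

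Averaged over both drug contrasts in the same fit, a comparison added after the data were seen that sets 6 libraries against 6, 6 of the 10 genes were called higher and 0 lower, against 15% and 13.2% of all genes (28.3% in either direction). Upper-quartile scaling turned that balance, from 1876 higher and 1649 lower to 1599 and 2094. They were AGPAT2 (0.74, SE 0.0359), MGLL (0.40, SE 0.0258), LIPE (0.34, SE 0.0567), ABHD5 (0.27, SE 0.0756, edgeR adjusted p 0.00522), DGAT2 (0.17, SE 0.0571, edgeR adjusted p 0.0225) and GPAM (0.16, SE 0.0401, edgeR adjusted p 0.00207). The genes other than DGAT2 did not overlap between libraries with and without the drug, a separation not counted over all genes, while DGAT2 did. Its averaged call was lost in 5 of 17 alternatives, by DESeq2 (adjusted p 0.103) and without control replicate 1, ascites replicate 2 or bezafibrate replicate 1 or 3 (edgeR adjusted p 0.0565 to 0.0676), while those of the other 5 genes held in all 17. LPIN1, DGAT1, PNPLA2 and PNPLA3 were not called. None of the 10 was called in the interaction (0 of 10, and 0 by DESeq2), in which 0% of all genes were called. An unadjusted p under 0.05 in the interaction was reached by 0 of the 10 and by 445 (3.57%) of all 12470 genes. With 10 genes, that 0 is no result about them.

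Ascites lowered LPIN1 when averaged over the drug, while neither ascites contrast alone reached the threshold. LPIN1 (ENSG00000134324.12, chromosome 2, 11677595 to 11827409, plus strand) encodes the phosphatase that turns phosphatidic acid into diacylglycerol and also acts in the nucleus as a coactivator. It had 50.5, 57.7 and 58.1 CPM in control and 49.2, 44.5 and 43.6 with ascites. With bezafibrate it had 52.9, 53.4 and 50.6, and in the combination 47.1, 43.3 and 49.5. All 6 libraries with ascites lay below all 6 without it. Ascites against control gave -0.27 (SE 0.0607, unadjusted p 6.82e-05, edgeR adjusted p 0.0654), short of the threshold, and the combination against bezafibrate -0.17 (SE 0.0598, edgeR adjusted p 0.791). Averaged over the drug, again added after the data were seen, LPIN1 fell by 0.22 on the log2 scale (SE 0.0426, edgeR adjusted p 0.00645), where 0.233% of all genes were called lower and 0.0481% higher (0.281% in all). Those all-gene counts of 29 lower and 6 higher became 70 and 48 without combination replicate 3. That call held in 16 of 17 alternatives and was lost without ascites replicate 3 (edgeR adjusted p 0.0503). Drug changes of LPIN1 were -0.08 (95% interval -0.20 to 0.04) and 0.03 (-0.10 to 0.15), not called.

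In the ascites contrasts taken singly, 0 of the 10 genes were called by edgeR, and 0 by DESeq2. The background was 0% of all genes higher and 0.0882% lower for ascites against control, and 0.0401% and 0.0882% for the combination against bezafibrate. An unadjusted p under 0.05 was reached by 2 of 10 genes in the former and 1 of 10 in the latter, beside 749 (6.01%) and 597 (4.79%) of all 12470 genes. The second gene in the former was MGLL, whose 3 ascites libraries lay below the 3 control libraries (-0.10, SE 0.0376, unadjusted p 0.00970, edgeR adjusted p 0.675). With the drug present MGLL was at -0.01 (95% interval -0.08 to 0.06). LPIN1 was called with ascites in 5 of 18 alternatives: without a filter on low counts (edgeR adjusted p 0.00133), when only the 2 groups were fitted (0.0207), and without control replicate 1 (0.0232), combination replicate 1 (0.0414) or combination replicate 3 (0.00708). PNPLA3, a gene that shares SREBP-1 as a known regulator with LPIN1, had changes of -0.24 (interval -0.57 to 0.08) and -0.14 (-0.45 to 0.17), and GPAM of 0.00 (-0.11 to 0.12) and -0.01 (-0.12 to 0.10). The part of SREBP-1 was not tested. Of the blood cell and platelet markers, 5 of 9 (PTPRC, CD3E, TYROBP, S100A8 and S100A9) and 3 of 3 had 0 counts in all libraries. The summed blood cell markers lay at 1.1 to 1.84 CPM in control and 1.21 to 2.11 CPM with ascites, which overlap, and at 1.1 to 1.69 CPM with bezafibrate and 1.94 to 2.29 CPM in the combination, which do not. These sums rest on LYZ, HBA1, HBA2 and HBB, each with at most 39 counts over the libraries of a group. LYZ, HBA1 and HBA2 were tested and not called between bezafibrate and the combination, and HBB had too few counts to be tested. The separation was not counted over all genes. The part of the blood cell and platelet markers in the LPIN1 result was not tested.

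Set directly against control, the combination had 4 of the 10 genes called higher and 1 lower, against 10.3% and 7.96% of all genes. This contrast shares its libraries with those above. AGPAT2 was at 0.74, ABHD5 at 0.40 (SE 0.108, edgeR adjusted p 0.00635), LIPE at 0.35 (SE 0.0820, edgeR adjusted p 0.00173) and MGLL at 0.34 (SE 0.0368, edgeR adjusted p 2.66e-09). LPIN1 was the gene called lower, at -0.25 (SE 0.0609, edgeR adjusted p 0.00278). These 5 calls held in each of 18 alternatives. PNPLA2 was at 0.13 (95% interval 0.01 to 0.26, edgeR adjusted p 0.140), which passed only without combination replicate 3 (edgeR adjusted p 0.0403).

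Around these enzymes, 51 other genes of glycerol supply, acylation, droplet coating and lipolysis were listed, of which 37 were tested. The list was chosen with earlier results of these data known, so its shares and those of its parts beside all genes are descriptions. Without ascites, bezafibrate raised 13 of the 37 and lowered 2, where 10.1% of all genes were called higher and 7.55% lower. With ascites it raised 13 and lowered 1, beside 10.5% and 7.29%. The median log2 fold change of the 37 was 0.09 and 0.11, beside -0.00 over all genes tested. Ascites called 0 of the 37 genes by edgeR, without or with the drug, and 0 by DESeq2; 2 and 1 of them (5.41% and 2.7%) had an unadjusted p under 0.05, no larger a share than the 6.01% and 4.79% of all genes.

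The group listed as regulators of PNPLA2 at the droplet also holds genes of droplet coating and fusion. Of its 6 tested genes, 3 rose without ascites and 4 with it, and 0 fell. Over all genes, 10.1% and 10.5% were called higher, and 7.55% and 7.29% lower. Perilipin PLIN4 rose from 2.7 to 31.9 CPM (log2 fold change 3.56) and PLIN2, which coats droplets in most cells, from 130.7 to 864.7 CPM (2.73). CIDEC, which enlarges droplets by fusing them, rose from 3.23 to 9.89 CPM (1.60, SE 0.154, edgeR adjusted p 1.35e-10). With ascites the changes were 3.72, 2.72 and 1.73, and PLIN3 was also called at 0.13 (edgeR adjusted p 0.0498), though its groups overlapped. HILPDA, a small protein that inhibits PNPLA2, had -0.01 and -0.13 and was not called. G0S2, another inhibitor of PNPLA2, had at most 5 counts in a library, and PLIN1, the adipocyte perilipin that holds ABHD5, at most 2, so neither could be tested.

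Of 5 genes of glycerol entry and supply, 3 rose with the drug and 0 fell, without and with ascites, beside the same 10.1% and 10.5% of all genes. AQP3, a channel for water and glycerol, rose from 7.07 to 27 CPM (1.94, SE 0.1, edgeR adjusted p 5.46e-18), and AQP7, the glycerol channel of fat cells, from 1.49 to 5.18 CPM (1.80, SE 0.225). AQP7 has near-identical copies in the genome, so its counts are uncertain. GPD1L, related to the enzyme that makes glycerol 3-phosphate, rose by 0.38 (SE 0.0802, edgeR adjusted p 0.000450). With ascites these 3 rose by 1.95, 2.10 and 0.47. Glycerol kinase GK had 0.08 and 0.15 and was not called.

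Among the acyltransferase relatives, 9 of 13 were tested, and 2 were called higher and 1 lower without ascites, beside 10.1% and 7.55% of all genes. GPAT3 of the endoplasmic reticulum went from 97.4 to 122.9 CPM (0.34, SE 0.0397, edgeR adjusted p 1.59e-08) and AGPAT3 rose by 0.14 (edgeR adjusted p 0.0446). LPGAT1, a lysophospholipid acyltransferase, was lower by -0.26 (SE 0.0406, edgeR adjusted p 5.20e-06). With ascites the values were 0.34, 0.13 (edgeR adjusted p 0.0679) and -0.16. The closest relative of AGPAT2, AGPAT1, which carries out the same reaction, was at -0.06 and -0.03 and was not called. LPIN2, a paralog of LPIN1, rose by 0.15 (edgeR adjusted p 0.0141) without ascites and 0.23 with it (edgeR adjusted p 0.000363).

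Of the other lipases, 8 of 12 were tested. ABHD6, which hydrolyses monoacylglycerol as MGLL does, rose from 13.8 to 18.5 CPM (0.42, SE 0.0993, edgeR adjusted p 0.00196), and by 0.37 with ascites. ABHD12, with the same substrate class, rose by 0.15 (edgeR adjusted p 0.0165), and had 0.11 with ascites (edgeR adjusted p 0.0973). LIPA, the acid lipase of the lysosome, was called lower at -0.18 (edgeR adjusted p 0.0187) although its groups overlapped, and had -0.12 with ascites. DDHD2, a lipase known from neurons, rose with ascites present (0.24, edgeR adjusted p 0.000393) and had 0.10 without it. Of the droplet assembly genes, FITM2, which acts in droplet budding, rose by 0.30 and 0.39, and HSD17B11, an enzyme found on droplets, by 0.17 and 0.19. Seipin (BSCL2), the product of the other gene of generalised lipodystrophy in this list, had 0.08 and -0.05 and was not called.

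**Figure D4:**
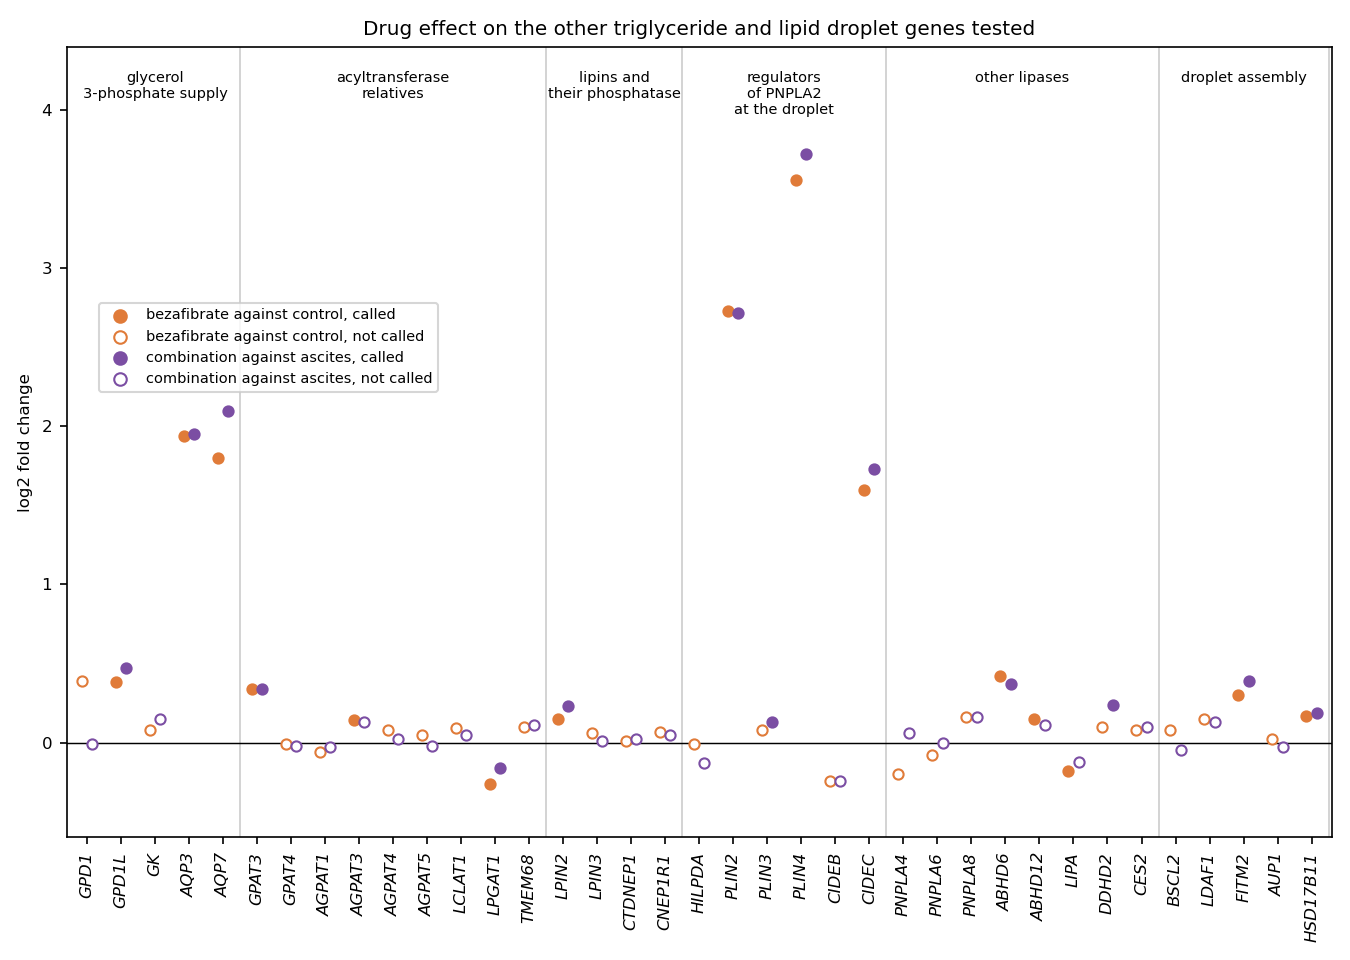
Log2 fold change under bezafibrate for the 37 other genes tested, grouped by role, without ascites (orange) and with it (purple); filled points were called. PLIN4, PLIN2, AQP3, AQP7 and CIDEC stand above 1.5, and the acyltransferase relatives lie between -0.26 and 0.34.

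For the genes called in both drug contrasts, the most similar patterns over the 12 libraries were looked for among the 11926 whose mean reached 1 CPM, as the root mean square difference of log2 CPM after each gene's own mean was subtracted. AGPAT2 was nearest to SGK2 (0.0565), ITGA3 (0.0590) and B3GNT3 (0.0592), whose drug changes without ascites were 0.77, 0.70 and 0.74. MGLL was nearest to RARA (0.0384), RDH10 (0.0438) and ZDHHC3 (0.0470). LIPE was nearest to C6orf141 (0.0651), CYSTM1 (0.0689) and ARHGAP27 (0.0701). The members' own root mean square deviations were 0.378, 0.204 and 0.189, so the likeness was closest, relative to its size, for AGPAT2. These values describe the libraries and carry no test.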

How the data were processed

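Gene expression was measured by RNA sequencing in 12 CAOV3 libraries, 3 in each of 4 groups taken from the labels' titles. The authors deposited whole-number counts for 19677 genes per library, without a header. Per the submitters' processing notes, Trimmomatic 0.39, STAR 2.7.9a, RSEM 1.3.3, DESeq2 1.28.1 and GRCh38 were used. The annotation, the strandedness and whether the counts are rounded RSEM estimates are not given in the sources used here. From the counts, genes were kept by filterByExpr (minimum count 10, minimum total 15), which left 12470. They were scaled by TMM and tested with edgeR 4.0.16 in R 4.3.3 (quasi-likelihood F test, robust, 1 mean per group), with Benjamini-Hochberg adjustment over all genes tested and a threshold of 0.05. CPM are counts per 1000000 TMM-scaled counts. Standard errors are the log2 fold change over the square root of F. The fit was tested on simulated data. Alternatives were RLE and upper-quartile scaling, no filter, DESeq2 1.42.0, only the groups of a contrast, a replicate block, an adjusted p under 0.01 and each library left out. The 10 genes, the 51 others and the markers were chosen with earlier results of these data known. Of the wider list, the called genes with the largest changes in each role are named, up to 4 a role, with values in the other contrasts, and the not-called genes named (GK, HILPDA, AGPAT1, BSCL2, G0S2, PLIN1) were chosen after their values were seen. Replicate pairs of 1 group differed by more than counting noise (chi-square per degree of freedom 1.44 to 4.45), which does not show whether they were separate cultures. Each library was counted once.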

Additional observations from a re-analysis of the deposited data

How the results depend on the processing

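Of 67 results for single members, 1131 of 1189 values under the alternatives kept their direction and their side of the threshold, 25 lost a call, 8 gained one and 25 changed sign, 0 of the latter with a call in either fit. The number of members called with ascites against control was 0, and 1 (LPIN1) without a filter and when only these groups were fitted, with 0 to 1 when 1 library was left out. For the combination against ascites it was 5, but 2 at an adjusted p under 0.01, a stricter threshold by construction, and 2 by DESeq2 (the cause was not tested); with 1 library left out it was 2 to 5, lowest without ascites replicate 2 and 3 without ascites replicate 3. For ascites averaged over the drug it was 1, and 0 to 1 with 1 library left out. The changes of sign all came from leaving out 1 library. Their log2 fold changes ranged, for GPAM, from -0.025 to 0.031 (ascites against control), -0.05 to 0.04 (combination against bezafibrate) and -0.054 to 0.034 (interaction); for PNPLA2 from -0.002 to 0.081 (combination against ascites) and -0.08 to 0.019 (interaction); for PNPLA3 from -0.081 to 0.171 (bezafibrate against control), -0.221 to 0.031 (combination against control) and -0.014 to 0.24 (interaction). They ranged for LIPE from -0.033 to 0.121 (ascites against control), for LPIN1 from -0.011 to 0.084 (combination against ascites), for MGLL from -0.037 to 0.006 (combination against bezafibrate) and for DGAT1 from -0.15 to 0.026 (combination against control). The replicate block changed no call of a member and gave 4 members for bezafibrate against control and 5 for the combination against ascites. Same-numbered libraries did not deviate together (correlations from -0.135 to 0.0613 over 18 pairs, and 1 of 12 libraries closest to its own number), so the numbers were not read as pairs. Depth limits PNPLA3 and ABHD5 most.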
